A study of Homo sapiens with 8 samples.

Results

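Integrins are cell-surface receptors for the extracellular matrix, each built from 1 alpha and 1 beta chain. The 10 chains described here are the alpha chains ITGA2, ITGA3, ITGA5, ITGA6, ITGA10 and ITGAV and the beta chains ITGB1, ITGB3, ITGB4 and ITGB6, out of 61228 gene names counted. They were matched by symbol, and all 10 passed the filter on low counts, as did 21307 genes in all. The set was chosen by a measured value, the much higher ITGA10 count with ACBI1 in HCC44. That value is therefore given as a description with no test, and the other 9 chains are set beside it.

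Total RNA was sequenced from a pair of human lung cancer lines, H1975 and HCC44, both labelled WT for genotype. Cells of each line received the solvent DMSO or ACBI1 for 96 hours, which gave 4 groups of 2 libraries: H1975 DMSO, H1975 ACBI1, HCC44 DMSO and HCC44 ACBI1. The labels give the ACBI1 concentration as 1 mM. That is far above concentrations usual for such compounds, so the unit is uncertain. ACBI1 is a degrader that recruits the VHL ubiquitin ligase to SMARCA2, SMARCA4 and PBRM1, which belong to the SWI/SNF family of chromatin remodellers. The comparison asks which transcripts change when these proteins are targeted.

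The alpha chain largely sets which matrix protein an integrin binds. ITGA2 and ITGA10, like ITGA1 and ITGA11, form collagen receptors with ITGB1. ITGA3 and ITGA6 form laminin receptors with ITGB1, and ITGA6 also pairs with ITGB4 in hemidesmosomes, the junctions that anchor epithelial cells to the basement membrane. ITGA5 with ITGB1 binds fibronectin through its RGD sequence. ITGAV pairs with ITGB1, ITGB3, ITGB5, ITGB6 or ITGB8 and binds RGD-containing proteins such as vitronectin, fibronectin and latent TGF-beta. ITGA10 is best known as a collagen receptor of cartilage cells.

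ITGA10 lies on chromosome 1 from 145891208 to 145910189 on the minus strand of GRCh38, in the GENCODE 29 annotation, and is a protein-coding gene. The 250 bases upstream of 3 RefSeq starts (build GRCh38.p14) are shown, written 5′ to 3′ with motif matches in capitals. They are ITGA10, the chain chosen for its response, ITGA2, the most abundant collagen-binding chain, and ITGB6, which was nearly absent from HCC44. The 2 annotations differ: all 3 RefSeq starts lie inside the GENCODE 29 bounds of the gene, so part of each window falls within those bounds.
ITGA10, chr1:145910051-145910300, minus strand: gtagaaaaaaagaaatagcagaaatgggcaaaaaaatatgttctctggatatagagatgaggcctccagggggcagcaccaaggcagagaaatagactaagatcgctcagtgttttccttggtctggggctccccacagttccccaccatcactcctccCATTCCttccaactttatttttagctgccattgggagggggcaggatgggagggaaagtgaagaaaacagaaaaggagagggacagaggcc
ITGA2, chr5:52989102-52989351, plus strand: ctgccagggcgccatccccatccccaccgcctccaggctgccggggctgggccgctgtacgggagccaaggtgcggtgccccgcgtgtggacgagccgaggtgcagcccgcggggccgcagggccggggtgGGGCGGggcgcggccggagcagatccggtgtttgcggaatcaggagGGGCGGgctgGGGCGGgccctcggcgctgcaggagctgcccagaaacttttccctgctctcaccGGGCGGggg
ITGB6, chr2:160200273-160200522, minus strand: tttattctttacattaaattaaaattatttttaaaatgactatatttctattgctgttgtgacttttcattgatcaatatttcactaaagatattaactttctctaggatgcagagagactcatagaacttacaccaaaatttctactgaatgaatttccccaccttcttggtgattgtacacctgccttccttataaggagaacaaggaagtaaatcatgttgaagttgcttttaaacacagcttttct
The GC content was 48.4% for ITGA10, 76.4% for ITGA2 and 30% for ITGB6, against a median of 58% over 35116 upstream windows of the same length. ITGA10 held 1 CpG, ITGB6 held 0 and ITGA2 held 26. The motifs below were searched on both strands. The AP-1 motif TGANTCA was in none of the 10 windows listed for 7 of the 10 chains, and in 6.57% of all windows. The TEAD motif GGAATG was in 3 of the 10 and in 11.9% of all windows. It lay 91 bases upstream of the RefSeq start of ITGA10 (capitals, as its reverse complement), 182 bases upstream of that of ITGB1 and 82 bases upstream of that of ITGA5. These 3 matches lie inside the GENCODE 29 bounds of their genes. The GC box GGGCGG was in 4 of the 10 and in 42.6% of all windows, and the capitals in ITGA2 mark its 4 matches. The TATA box TATAAA was in 2 of the 10 and in 10.7% of all windows. These matches are letters in a window, and no binding was measured.

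Counts assigned to genes ranged from 62467286 to 70455517 per library. Levels are counts per 1000000 counts of the library (CPM), with library sizes scaled by TMM factors, which correct for differences in RNA composition. Fold changes are log2 values with standard errors (SE) from edgeR's quasi-likelihood test, and a gene was called at a Benjamini-Hochberg adjusted p under 0.05 over all tested genes. No label says that replicates came from separate cultures, so p-values measure only the spread between these libraries. With library totals in place of TMM factors, the log2 fold change of the median gene was 0.20 higher in H1975 and 0.09 higher in HCC44. Changes are stated relative to the TMM scale. In bulk RNA, fewer cells of a type and less RNA per cell cannot be told apart. All 6 markers of a lung epithelial line (EPCAM, KRT7, KRT8, KRT18, KRT19 and CDH1) exceeded 1 CPM in every group. Their sum was 5135 to 5391 CPM in H1975 DMSO, 2330 to 2807 in H1975 ACBI1, 940 to 980 in HCC44 DMSO and 1198 to 1657 in HCC44 ACBI1. In H1975, where most of the chains fell, KRT7, KRT8, KRT18 and KRT19 fell. In HCC44, where the chains went both ways, KRT7 (log2 1.09) and EPCAM (0.84) rose and KRT8 fell (-0.52). The part of these markers in the results was not tested.

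Most of the integrin chains fell in H1975, and those of HCC44 went both ways. In H1975, 7 of the 10 chains fell and 0 rose, where 16.7% of all tested genes were called lower, 14.6% higher and 31.3% in either direction. The 7 were ITGA2, ITGA3, ITGA5, ITGAV, ITGB3, ITGB4 and ITGB6, with log2 fold changes from -2.04 to -1.01. Fewer of the 7 were called with 1 library left out, at 5 to 6. ITGB1, ITGA6 and ITGA10 were not called. In HCC44, 6 of the 9 chains other than ITGA10 were called, 3 higher and 3 lower, where 34.9% of all tested genes were called, 17.5% higher and 17.4% lower. Only 1 chain was called higher without DMSO replicate 1 or ACBI1 replicate 2, and only 1 lower without DMSO replicate 2 or ACBI1 replicate 1. Nothing is read from that count, because this comparison chose ITGA10. The groups did not overlap for 8 of the 10 chains in H1975 and for 8 of the 9 others in HCC44, where 67.3% and 66.8% of tested genes had groups that did not overlap.

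The response itself was compared between the lines as HCC44 minus H1975 for the 9 chains other than ITGA10. It was called more positive in HCC44 for 5 of them (ITGA2, ITGA5, ITGA6, ITGAV and ITGB6) and more negative for 0, where 18.6% of all tested genes were called, 10.2% more positive and 8.4% more negative. ITGB6 passed the filter on low counts only through H1975, where it was high, so nothing is read from its call.

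**Figure D1:**
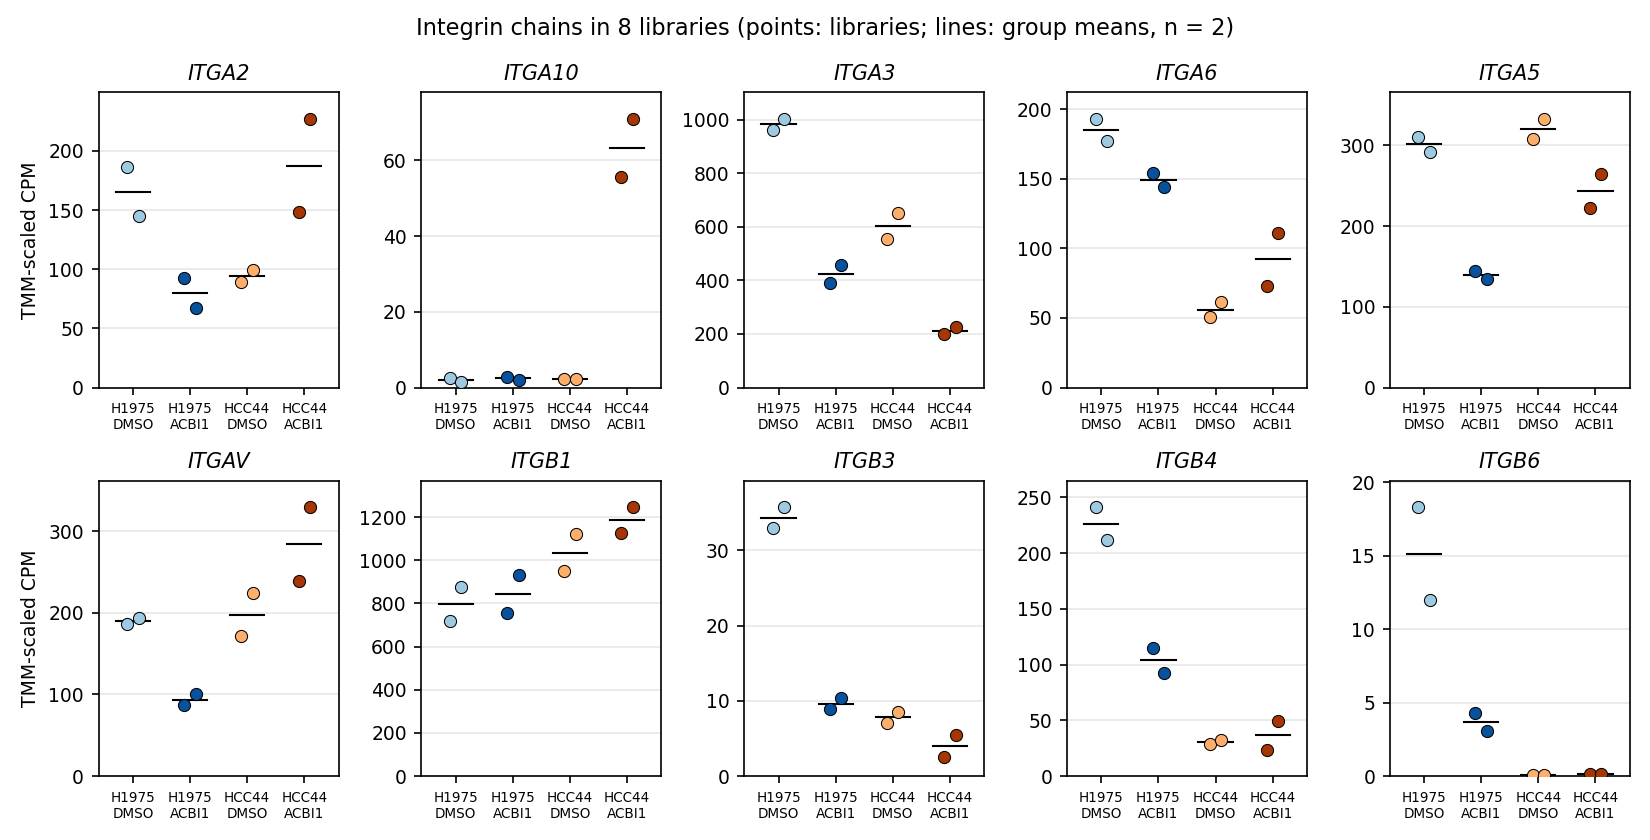
TMM-scaled CPM of the 10 chains (linear axes from 0) in the 8 libraries, with points for libraries and lines for the means of 2. ITGA10 is between 1.57 and 2.91 CPM in 6 libraries and at 55.7 and 71 CPM in the HCC44 ACBI1 libraries. ITGA2 and ITGAV are lower with ACBI1 in H1975 and higher in HCC44.

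ITGA10 was close to the bottom of the range of these chains in every group but 1. Its level was 2.42 and 1.57 CPM in the H1975 DMSO libraries and 2.91 and 1.92 CPM in H1975 ACBI1. In HCC44 it was 2.37 and 2.37 CPM with DMSO, from 149 and 151 counts, and 55.7 and 71 CPM with ACBI1, from 3479 and 4511 counts. Both HCC44 ACBI1 libraries stand far above the other 6, which overlap between groups. The HCC44 difference was 26.7-fold (log2 4.74, SE 0.25), the largest among the 10 chains and at position 63 of 21307 tested genes ranked by log2 fold change. Leaving out each HCC44 library in turn gave 4.55 to 4.90. In H1975 the fold change was 0.28 (SE 0.25, 95% interval -0.27 to 0.83) and was not called, with an adjusted p of 0.424. Its sign depended on 1 library, since it was -0.02 without ACBI1 replicate 1. The fitted difference between the lines, HCC44 minus H1975, was 4.46 (SE 0.34) and is not tested, because the HCC44 part chose the gene. Exons of ITGA10 overlap those of 1 annotated antisense gene over 1.93% of their length. Antisense reads cannot be told apart, since the strand setting is not given in the sources used here.

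Of the other collagen-binding chains, ITGA2 also rose in HCC44 but fell in H1975, ITGA11 fell in HCC44, and ITGA1 was called in neither line. ITGA2, the main collagen receptor chain of epithelial cells, was 186 and 145 CPM in H1975 DMSO and 92.3 and 67 CPM in H1975 ACBI1. It was 89 and 99.2 CPM in HCC44 DMSO and 148 and 227 CPM in HCC44 ACBI1. The groups did not overlap in either line, and the direction was opposite. ITGA2 fell in H1975 (log2 -1.06, SE 0.24, adjusted p 0.0124) and rose in HCC44 (log2 1.00, SE 0.23, adjusted p 0.0134). HCC44 minus H1975 was 2.05 (SE 0.33, adjusted p 0.00601). The H1975 call was lost without DMSO replicate 1 (-0.86) or ACBI1 replicate 2 (-0.82), and the HCC44 call without ACBI1 replicate 2 (0.65). ITGA11, a collagen receptor chain of mesenchymal cells, was 3.04 and 2.8 CPM in HCC44 DMSO and 0.144 and 0.0944 CPM in HCC44 ACBI1. From 370 counts it went to 15, and the 95% counting interval of the ratio, 0.0408, ran from 0.0226 to 0.0681. ITGA11 fell there (log2 -4.59, SE 0.34, adjusted p 7.13e-06). However, ITGA11 passed the filter on low counts only through HCC44 DMSO, the group where it was high, so nothing is read from that p. In H1975 it had 2 and 6 counts with DMSO and ACBI1, too few for a direction. ITGA1 was 37.9 and 51.8 CPM in HCC44 DMSO and 40.5 and 59.6 CPM in HCC44 ACBI1. It was called in neither line (log2 -0.08, 95% interval -0.59 to 0.44 in H1975, and 0.16, -0.29 to 0.60 in HCC44), and its sign in both depended on single libraries and in H1975 on the scaling.

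Per kilobase of exon, the collagen-binding chains changed in total and in makeup. Their summed level was 21.4 CPM per kilobase in H1975 DMSO and 10.6 in H1975 ACBI1, and 15 in HCC44 DMSO and 36.4 in HCC44 ACBI1 (means of 2 libraries). ITGA2 made up 97.8% ± 0.153 (SD, n = 2) of that sum in H1975 DMSO and 94.9% ± 0.0289 in H1975 ACBI1. In HCC44 its share was 79.6% ± 1.48 with DMSO and 64.8% ± 2.55 with ACBI1. ITGA10 made up 1.46% ± 0.186 and 3.58% ± 0.238 in H1975 DMSO and ACBI1. The H1975 level of ITGA10 itself was 0.316 CPM per kilobase with DMSO and 0.382 with ACBI1, so its larger share there goes with the fall of ITGA2 (21 and 10.1). ITGA10 made up 2.52% ± 0.242 in HCC44 DMSO and 27.8% ± 2.59 in HCC44 ACBI1. ITGA2 thus remained the most abundant collagen-binding chain in all 4 groups. The share of ITGA1 in HCC44 was 16.1% ± 2 with DMSO and 7.39% ± 0.0566 with ACBI1, while its level was 2.42 and 2.69 CPM per kilobase.

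**Figure D2:**
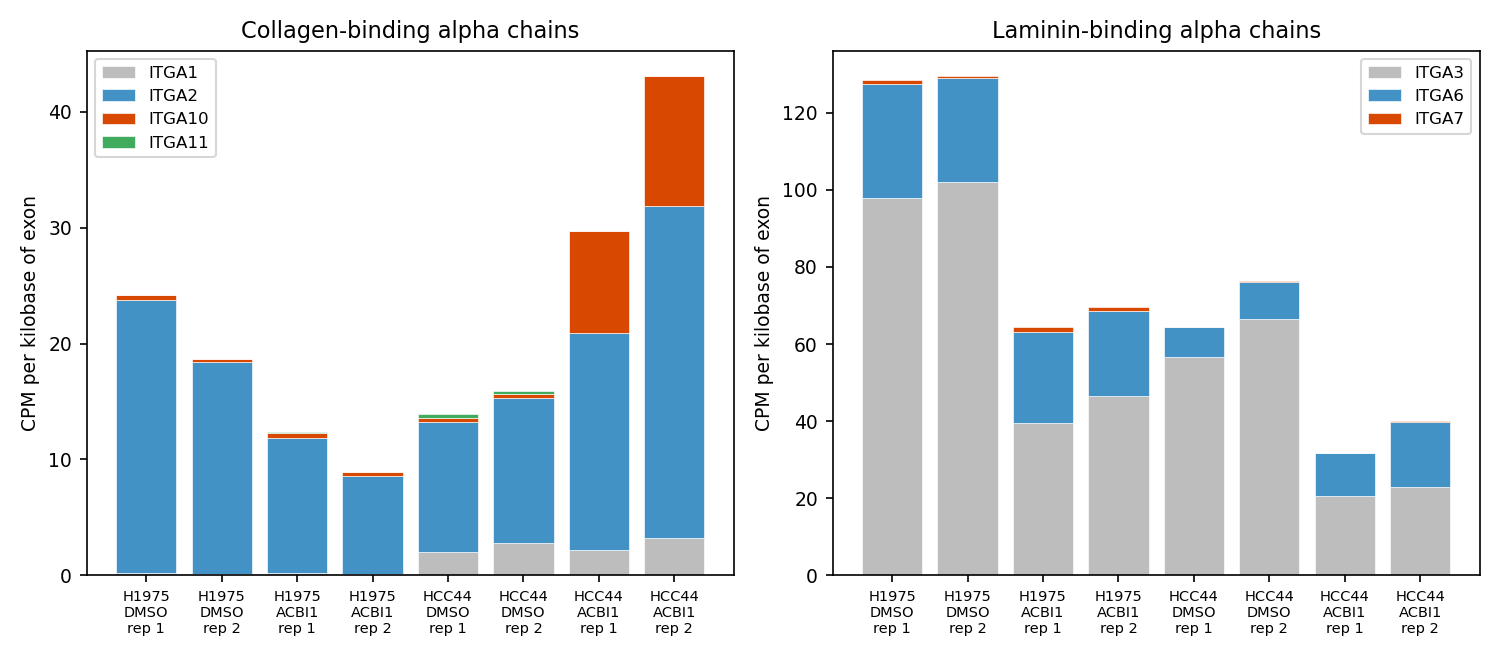
CPM per kilobase of exon, stacked by chain, in each library for the collagen-binding alpha chains (left) and the laminin-binding alpha chains (right). ITGA10 is visible as a large segment in the 2 HCC44 ACBI1 libraries, and the laminin-binding total is lower with ACBI1 in both lines.

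The laminin receptor chain ITGA3 fell in both lines. It was 961 and 1003 CPM in H1975 DMSO and 389 and 456 CPM in H1975 ACBI1, and 555 and 653 CPM in HCC44 DMSO and 201 and 225 CPM in HCC44 ACBI1. The groups were far apart in each line. The log2 fold changes were -1.22 in H1975 and -1.50 in HCC44 (SE 0.11 in each, adjusted p 4.52e-05 and 7.43e-06). HCC44 minus H1975 was -0.29 (95% interval -0.63 to 0.06) and was not called. ITGA3 was called in both lines under every alternative run.

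ITGA6, the other laminin receptor chain, differed between the lines. It was 193 and 177 CPM in H1975 DMSO and 154 and 144 CPM in H1975 ACBI1, a fold change of -0.31 (SE 0.18, adjusted p 0.22) that was not called. In HCC44 it was 50.5 and 61.6 CPM with DMSO and 73.1 and 111 CPM with ACBI1. The ACBI1 libraries lay above both DMSO libraries, 1 of them only slightly. ITGA6 rose there by 0.72 (SE 0.18, adjusted p 0.0124), and by 0.58 with no call without DMSO replicate 1 and by 0.38 without ACBI1 replicate 2. The difference between the lines was 1.02 (SE 0.25, adjusted p 0.0214). As a share of the laminin-binding alpha chains per kilobase, ITGA6 was 21.9% ± 1.53 and 34.1% ± 3.45 in H1975 DMSO and ACBI1. In HCC44 it was 12.2% ± 0.265 and 38.8% ± 5.06. The H1975 level of ITGA6 itself was 28.3 CPM per kilobase with DMSO and 22.8 with ACBI1, so its larger share there goes with the fall of ITGA3. The muscle chain ITGA7 was at most 8.03 CPM and was called in neither line (0.55, SE 0.30, and -0.35, SE 0.35).

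ITGB4, the hemidesmosome partner of ITGA6, was 241 and 212 CPM in H1975 DMSO and 115 and 92.6 CPM in H1975 ACBI1. It fell in H1975 (log2 -1.12, SE 0.30, adjusted p 0.0296). That call is fragile: it was lost when any of the 4 H1975 libraries was left out (-1.26 to -0.94), with library totals (-0.92) and with no filter (-1.13). In HCC44 ITGB4 was 28.4 and 32.3 CPM with DMSO and 23.6 and 49.3 CPM with ACBI1, so the groups overlapped. The fold change was 0.26 (SE 0.31, 95% interval -0.46 to 0.99), and it was -0.36 without ACBI1 replicate 2 and 0.70, past the threshold, without ACBI1 replicate 1. The difference between the lines was 1.39 (SE 0.43, adjusted p 0.0681) and was not called. COL17A1, a hemidesmosome collagen, fell in H1975 from 219 and 152 CPM to 42.3 and 23.3 CPM (log2 -2.50, SE 0.30, adjusted p 9.02e-04) and was at most 0.173 CPM in HCC44. PLEC, which links ITGB4 to keratin filaments, fell in H1975 (log2 -0.74, adjusted p 0.00111) and in HCC44 (log2 -0.60, adjusted p 0.00262), with an SE of 0.12 in each. CD151, a tetraspanin bound to laminin receptors, fell by 0.81 in H1975 (SE 0.13, adjusted p 9.79e-04). A list of 10 partners held hemidesmosome genes, tetraspanins and 2 genes that are neither, CD47 and SLC3A2. Of the 10, 7 fell and 0 rose in H1975, CD47 among them, where 16.7% of all tested genes were called lower and 14.6% higher. In HCC44 5 of the 10 fell, CD47 and SLC3A2 among them, and 0 rose, where 17.4% and 17.5% were. Their medians were -0.65 and -0.33, beside -0.01 and 0.01 over all genes tested.

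The fibronectin receptor chain ITGA5 fell in both lines, and more in H1975. It was 311 and 292 CPM in H1975 DMSO and 145 and 135 CPM in H1975 ACBI1, and 308 and 333 CPM in HCC44 DMSO and 222 and 265 CPM in HCC44 ACBI1. The treated libraries were below both solvent libraries in each line. The falls were 1.11 (SE 0.10, adjusted p 4.86e-05) and 0.40 (SE 0.10, adjusted p 0.0113), with a difference of 0.71 (SE 0.14, adjusted p 0.00726). The HCC44 call was lost without DMSO replicate 2 (-0.34) or ACBI1 replicate 1 (-0.27). Its ligand FN1, fibronectin, fell in H1975 from 986 and 1389 CPM to 326 and 372 CPM (log2 -1.77, SE 0.19, adjusted p 2.67e-04). FN1 rose in HCC44 from 29.9 and 21.6 CPM to 91.1 and 101 CPM (log2 1.90, SE 0.19, adjusted p 1.34e-04).

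ITGAV moved in opposite directions in the lines. It was 186 and 193 CPM in H1975 DMSO and 87.3 and 100 CPM in H1975 ACBI1, and 171 and 224 CPM in HCC44 DMSO and 239 and 329 CPM in HCC44 ACBI1. The H1975 groups were clearly apart, while the nearest HCC44 DMSO and ACBI1 libraries lay close together. ITGAV fell in H1975 by 1.01 (SE 0.17, adjusted p 0.00177) and rose in HCC44 by 0.52 (SE 0.16, adjusted p 0.033). The HCC44 call was lost without DMSO replicate 1 (0.34), without ACBI1 replicate 2 (0.27) and with HCC44 fitted alone (0.53). The difference between the lines was 1.54 (SE 0.23, adjusted p 0.00246).

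Of the beta partners of ITGAV, ITGB3 and ITGB6 fell in H1975 and ITGB5 and ITGB8 rose in HCC44. ITGB3, the vitronectin receptor chain, was 32.9 and 35.7 CPM in H1975 DMSO and 8.87 and 10.4 CPM in H1975 ACBI1, a fall of 1.83 (SE 0.29, adjusted p 0.00161). In HCC44 it was 7.06 and 8.57 CPM with DMSO and 2.51 and 5.46 CPM with ACBI1, a fall of 0.97 (SE 0.30, adjusted p 0.0311). That HCC44 call was lost without DMSO replicate 1 (-1.10), DMSO replicate 2 (-0.82) or ACBI1 replicate 1 (-0.52), and with HCC44 fitted alone (-0.96), and the value was -1.64 without ACBI1 replicate 2. The difference between the lines was 0.86 (SE 0.41, adjusted p 0.182) and was not called. In GENCODE 29 another gene on the same strand overlaps 51.6% of ITGB3 exon length, and for ITGB6 the figure is 20.6%, so reads of these 2 genes may be partly uncounted.

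ITGB6, an epithelial chain that activates latent TGF-beta with ITGAV, was 18.3 and 12 CPM in H1975 DMSO and 4.28 and 3.07 CPM in H1975 ACBI1. It fell there by 2.04 (SE 0.24, adjusted p 1.95e-04), the largest fall among the 10 chains in that line. In HCC44 it had 7 counts over the 2 DMSO libraries and 15 over the ACBI1 libraries, and the ratio of ACBI1 to DMSO was 2.15 (95% counting interval 0.827 to 6.24). The fitted difference between the lines, 3.13 (SE 0.70, adjusted p 0.0116), rests on those few HCC44 counts. It was not called without HCC44 DMSO replicate 2 (2.93) or ACBI1 replicate 1 (3.02). ITGB6 also passed the filter on low counts only through H1975, so nothing is read from the call of that difference.

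ITGB5, which like ITGB3 forms a vitronectin receptor with ITGAV, was 115 and 128 CPM in HCC44 DMSO and 211 and 303 CPM in HCC44 ACBI1. It rose there by 1.08 (SE 0.16, adjusted p 7.84e-04). In H1975 it was 175 and 210 CPM with DMSO and 139 and 155 CPM with ACBI1 (log2 -0.39, SE 0.16, adjusted p 0.0941), not called, though the groups did not overlap. The difference between the lines was 1.47 (SE 0.23, adjusted p 0.00265). ITGB8, another chain that activates latent TGF-beta with ITGAV, was 0.207 and 0.219 CPM in HCC44 DMSO and 0.608 and 0.645 CPM in HCC44 ACBI1, a rise of 1.55 (SE 0.36, adjusted p 0.00638). In H1975 its fold change was 0.09 (SE 0.26), with a sign that depended on single libraries. Per kilobase, ITGB1 made up 76.3% ± 1.1 to 89.3% ± 0.39 of these 5 beta chains over the 4 groups. ITGB3 went from 4.52% ± 0.313 to 1.32% ± 0.0282 of them in H1975. ITGB5 went from 9.77% ± 0.407 to 16.6% ± 2.54 in HCC44.

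The shared partner ITGB1 was called in neither line. It was 717 and 877 CPM in H1975 DMSO and 756 and 932 CPM in H1975 ACBI1, and 948 and 1123 CPM in HCC44 DMSO and 1128 and 1245 CPM in HCC44 ACBI1. In H1975 the groups overlapped, and in HCC44 the nearest libraries were close. The fold changes were 0.08 (95% interval -0.21 to 0.38, adjusted p 0.678) and 0.20 (-0.10 to 0.49, adjusted p 0.292). The H1975 sign depended on single libraries, at -0.05 without DMSO replicate 1 or ACBI1 replicate 2. ITGB1 has a pseudogene among the counted genes, so some of its reads may be split. Per kilobase, the 6 alpha chains of the set summed to 213 in H1975 DMSO and 106 in H1975 ACBI1, and to 149 and 136 in HCC44. Within that sum, ITGA3 held 41.4% ± 0.288 in HCC44 DMSO and 16.1% ± 1.88 in HCC44 ACBI1. ITGA10 held 0.253% ± 0.0275 and 7.37% ± 0.171 in HCC44 DMSO and ACBI1.

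**Figure D3:**
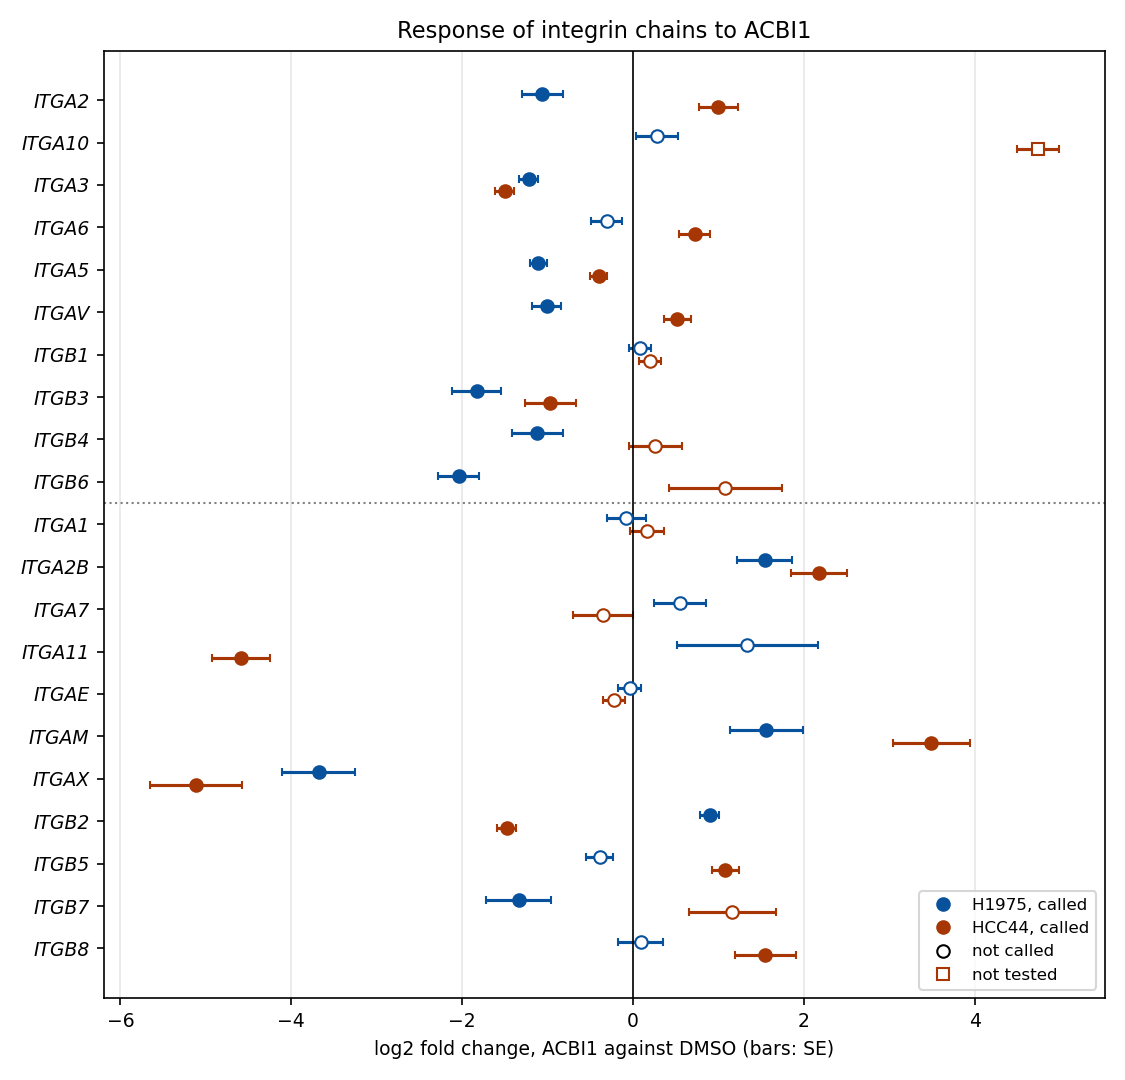
Log2 fold change of ACBI1 against DMSO (x axis, bars are SE) for the 10 chains above the dotted line and the 11 other tested integrin chains below it, H1975 in blue and HCC44 in red. Filled points were called, open circles were not, and the open square of ITGA10 in HCC44 at 4.74 was not tested.

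In the comparison of the lines under DMSO, 7 of the 9 chains other than ITGA10 were called, where 67.9% of all tested genes were called. HCC44 was lower in 6 and higher in 1, where 36.4% and 31.6% of all tested genes were called, and the groups did not overlap for 7 of the 9, as for 84.9% of all tested genes. The log2 differences, HCC44 minus H1975, were -8.05 for ITGB6 (SE 0.40), -2.90 for ITGB4 (SE 0.33), -2.13 for ITGB3 (SE 0.29), -1.72 for ITGA6 (SE 0.18), -0.82 for ITGA2 (SE 0.23) and -0.70 for ITGA3 (SE 0.11). Their adjusted p-values ran from 2.2e-08 to 0.015. However, ITGB6, 1 of the 6, passed the filter on low counts only through H1975, the line where it was high. Nothing is read from its p. The ITGA2 call was lost without H1975 DMSO replicate 1 (-0.62). ITGB1 was higher in HCC44 by 0.38 (SE 0.13, adjusted p 0.0263), a call lost with library totals (0.26), without H1975 DMSO replicate 1 (0.24) and without HCC44 DMSO replicate 2 (0.25), and at 0.58 without H1975 DMSO replicate 2. ITGA5 (0.09, 95% interval -0.14 to 0.31) and ITGAV (0.06, -0.31 to 0.43) were not called, and the sign of each was reversed by library totals. ITGA10 stood at 2.42 and 1.57 CPM in H1975 and 2.37 and 2.37 CPM in HCC44, with overlapping groups. These DMSO libraries are also those of the responses above.

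Ordered per kilobase, ITGB1 was the most abundant of the 10 chains in every group, at 133 ± 18.8 CPM per kilobase (SD, n = 2) in H1975 DMSO and 172 ± 20.7 in HCC44 DMSO. ITGA3 followed at 100 ± 3.06 and 61.6 ± 7.09, and ITGA5 at 39.8 ± 1.76 and 42.3 ± 2.38. In H1975 DMSO, ITGB4 (33.5 ± 3.03) and ITGA6 (28.3 ± 1.76) came next, then ITGAV (23.1 ± 0.634) and ITGA2 (21 ± 3.71). The last pair lay within their spread, as no other neighbours of the DMSO orders given here did. At the lower end were ITGB3 (7.8 ± 0.455), ITGB6 (3.24 ± 0.95) and ITGA10 (0.316 ± 0.0956). In HCC44 DMSO the order after ITGA5 was ITGAV (24 ± 4.52), ITGA2 (11.9 ± 0.915), ITGA6 (8.58 ± 1.2), ITGB4 (4.49 ± 0.402), ITGB3 (1.78 ± 0.244), ITGA10 (0.375 ± 0.000214) and ITGB6 (0.0118 ± 0.0025).

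With ACBI1 in HCC44, ITGA3 went from position 2 to 5 of the 10, ITGA10 from 9 to 7 and ITGAV from 4 to 2. By the longest transcript in place of all exons, the positions with ACBI1 were 4 for ITGA3, 7 for ITGA10 and 3 for ITGAV. ITGAV (34.6 ± 7.73) and ITGA5 (32.2 ± 4.06) stood next to ITGB1 (197 ± 13.9) and within each other's spread. ITGA2 (23.7 ± 7.11) overlapped ITGAV, ITGA5, ITGA3 (21.7 ± 1.69) and ITGA6 (14.1 ± 4.09) within 1 SD. ITGA6 and ITGA10 (10 ± 1.71) also overlapped each other within 1 SD. ITGA10 was then above ITGB4 (5.39 ± 2.69), ITGB3 (0.907 ± 0.474) and ITGB6 (0.0254 ± 0.0027). In H1975 ACBI1 the order was ITGB1 (140 ± 20.6), ITGA3 (43.1 ± 4.85), ITGA6 (22.8 ± 1.07), ITGA5 (18.5 ± 0.907), ITGB4 (15.4 ± 2.4), ITGAV (11.4 ± 1.12), ITGA2 (10.1 ± 2.26) and ITGB3 (2.19 ± 0.249). ITGA5 and ITGB4 overlapped there, as did ITGAV and ITGA2. ITGA10 remained the lowest at 0.382 ± 0.111, below ITGB6 at 0.784 ± 0.183. Dividing by the longest transcript in place of all exons gave 179 for ITGA3 and 211 for ITGB1 in H1975 DMSO, and a share of 24.6% for ITGA1 among the collagen-binding chains in HCC44 DMSO.

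Of the 16 integrin chains outside the set, 12 alpha and 4 beta, 11 passed the filter. In H1975 3 rose and 2 fell, where 31.3% of all tested genes were called, and in HCC44 4 rose and 3 fell, where 34.9% were. ITGA11, among those that fell in HCC44, passed the filter only through HCC44 DMSO. Those known from leukocytes and platelets follow, the others having been described above. The beta chain ITGB2, known from leukocytes, rose in H1975 from 44.4 and 52.8 CPM to 83.5 and 98.6 CPM (log2 0.90, SE 0.11, adjusted p 2.59e-04). It fell in HCC44 from 172 and 165 CPM to 57.7 and 63.3 CPM (log2 -1.48, SE 0.11, adjusted p 8.84e-06). The difference of -2.38 (SE 0.16) had an adjusted p of 2.56e-05. Among its alpha partners, ITGAX fell in H1975 (log2 -3.68, SE 0.43, adjusted p 1.73e-04) and in HCC44 (log2 -5.12, SE 0.54, adjusted p 6.05e-05). ITGAX had 324 counts with DMSO and 9 with ACBI1 in HCC44, and their ratio was 0.0279 (95% counting interval 0.0127 to 0.0537). Its HCC44 fold change stayed called but depended on the ACBI1 libraries, at -7.18 with replicate 1 left out and -4.30 with replicate 2 left out. ITGAM rose in both, from 26 to 86 counts in H1975 (log2 1.56, SE 0.43, adjusted p 0.019) and from 16 to 181 counts in HCC44 (log2 3.49, SE 0.45, adjusted p 1.93e-04). The H1975 call of ITGAM was lost without DMSO replicate 2 (1.12) or ACBI1 replicate 1 (1.39). However, ITGAM passed the filter on low counts only through the ACBI1 groups, where it was high, so nothing is read from its p in either line.

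The platelet chain ITGA2B rose in both lines, by 1.54 in H1975 (SE 0.32, adjusted p 0.00432) and 2.18 in HCC44 (SE 0.33, adjusted p 5.37e-04), to at most 8.05 CPM. ITGB7, a lymphocyte chain, fell in H1975 by 1.34 (SE 0.38, adjusted p 0.0199), a call lost without DMSO replicate 1 (-1.16), ACBI1 replicate 1 (-1.27) or ACBI1 replicate 2 (-1.36). In HCC44 ITGB7 had 25 and 56 counts (log2 1.16, SE 0.51), not called. Opposite-strand exons of another gene cover 42.1% of ITGB7. ITGAE, which binds E-cadherin, was called in neither line (-0.04, SE 0.13, and -0.22, SE 0.13), and its H1975 sign was reversed under a pair of other scalings, upper-quartile factors (0.03) and library totals (0.17). ITGA4, ITGA8, ITGA9, ITGAD and ITGAL did not pass the filter. Leukocyte markers moved alongside ITGB2, which is 1 of the 6: their sum was 70.6 to 72.9 and 105 to 109 CPM in H1975 DMSO and ACBI1, and 169 to 176 and 58.9 to 65.1 CPM in HCC44. The defining marker PTPRC was at most 0.048 CPM in any library, and CD3E had 0 counts in all groups. Of 5 platelet markers, GP9 and PF4 had 0 counts in all groups.

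Of the matrix ligand genes tested, 0 rose in H1975. All-gene shares were 16.7% called lower and 14.6% higher in H1975, and 17.4% and 17.5% in HCC44. Of 11 tested collagen genes 7 fell and 0 rose in H1975, with a median of -1.13, and 6 fell and 2 rose in HCC44, with a median of -0.51. Over all tested genes the medians were -0.01 and 0.01. COL5A1 fell most among the H1975 collagens that averaged 5 CPM or more in either group, from 454 and 474 CPM to 68.8 and 89.6 CPM (log2 -2.55, SE 0.17, adjusted p 1.65e-05), and COL6A2 fell (log2 -1.31, SE 0.15, adjusted p 1.95e-04). In HCC44 their values were -0.51 (adjusted p 0.0325) and -0.63 (adjusted p 0.00727). The less abundant COL1A2 (log2 -3.09) and COL6A3 (log2 -2.59), named after their values were seen, fell further in H1975, to 0.361 and 0.315 CPM. COL1A1 rose in HCC44 from 89.5 and 71.1 CPM to 200 and 403 CPM (log2 1.91, SE 0.35, adjusted p 0.0055), a call lost with no filter (1.92). It fell in H1975 at the threshold (-1.13, SE 0.35, adjusted p 0.0485), a call lost with any of the 4 H1975 libraries left out (-1.36 to -0.78) and with no filter, the block or another scaling (-1.13 to -0.92). COL2A1, the cartilage collagen bound by ITGA10, was at most 0.124 CPM in any library. COL9A3 rose in HCC44 by 2.33 (SE 0.32, adjusted p 2.75e-04) and COL9A2 fell by 1.46 (SE 0.28, adjusted p 0.00246). Both encode chains of a cartilage collagen.

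Cartilage and fibroblast markers were measured beside ITGA10. The 7 chondrocyte markers summed to 15.5 to 23.8 CPM in HCC44 DMSO and 15 to 20.5 CPM in HCC44 ACBI1, with 2 of the 7 above 1 CPM in each. ACAN had 0 counts in both HCC44 groups. The chondrocyte sums were higher in H1975, at 93.4 to 106 CPM with DMSO and 59.4 to 64 CPM with ACBI1. They were mostly SOX9, with means of 90.4 and 51.2 CPM in H1975 DMSO and ACBI1 and 13.9 and 12.8 CPM in HCC44. The 6 fibroblast markers summed to 74.3 to 92.6 CPM in HCC44 DMSO and 207 to 411 CPM in HCC44 ACBI1, mostly COL1A1, and DCN had 0 counts in all groups. In H1975 the fibroblast sums were 48.9 to 72 and 25.6 to 30.5 CPM. The part of these markers in the ITGA10 result was not tested.

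Among laminin genes, 8 of 11 fell and 0 rose in H1975 (median -0.88), where 16.7% of all tested genes were called lower and 14.6% higher. In HCC44, 2 fell and 2 rose (median -0.48), where 17.4% and 17.5% were. LAMB3, a chain of the epithelial laminin that ITGA3 and ITGA6 bind, fell in H1975 by 1.18 (SE 0.21, adjusted p 0.00422). LAMB3 also fell in HCC44, by 1.07 (SE 0.21, adjusted p 0.00513). LAMB1 fell in H1975 from 26.7 and 21.7 CPM to 3.06 and 2.47 CPM (log2 -3.13, SE 0.21, adjusted p 2.19e-05). In HCC44 LAMC3 rose by 1.38 (SE 0.24, adjusted p 0.00118) and LAMB2 fell by 0.50 (SE 0.10, adjusted p 0.00236), beside -0.42 in H1975 (adjusted p 0.0075). Among 13 RGD-type and other ligands, 6 fell and 0 rose in H1975 (median -0.80), and 3 fell and 3 rose in HCC44 (median 0.09). TNC, tenascin-C, fell in both lines, by 1.78 and 2.11 (SE 0.11 in each, adjusted p 3.97e-06 and 6.6e-07). THBS1, thrombospondin, rose in HCC44 (log2 1.44, SE 0.15, adjusted p 9.81e-05) and fell in H1975 (log2 -1.39, SE 0.15, adjusted p 1.85e-04). CCN2 fell in H1975 by 1.47 (SE 0.38, adjusted p 0.025), a call lost without any 1 of the 4 H1975 libraries (-1.56 to -1.32) with library totals (-1.27) and with no filter (-1.47).

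Genes for proteins that bind integrin tails inside the cell were also counted. Of 23 tested adaptors, activators and kinases, 10 fell and 1 rose in H1975 (median -0.28), and 9 fell and 3 rose in HCC44 (median -0.15), beside the same shares of all tested genes as above (16.7% lower and 14.6% higher, and 17.4% and 17.5%). The genes that rose were named after their values were seen. ILK rose in H1975 (log2 0.39, SE 0.09, adjusted p 0.00722) and in HCC44 (log2 0.51, SE 0.09, adjusted p 0.00136). TLN2 and TNS3 rose in HCC44 (log2 1.81 and 1.49, adjusted p 3.03e-04 and 0.00755). PARVA, a partner of ILK at focal adhesions, fell by 1.15 in H1975 (SE 0.14, adjusted p 1.95e-04) and by 1.54 in HCC44 (SE 0.14, adjusted p 2.1e-05). TNS4, a tensin, fell by 2.01 (SE 0.44, adjusted p 0.013) and 1.78 (SE 0.42, adjusted p 0.0153). Both TNS4 calls were lost with no filter (-2.01 and -1.78), the H1975 call also without DMSO replicate 1 (-1.54) and the HCC44 call without ACBI1 replicate 1 (-1.54). TNS2 fell in H1975 by 1.00 (SE 0.19, adjusted p 0.00244). FERMT3, the kindlin of blood cells, fell in HCC44 from 15.1 and 16.5 CPM to 2.59 and 3.24 CPM (log2 -2.44, SE 0.24, adjusted p 4.21e-05). CD63 and CD82 are tetraspanins. CD63 fell by 1.17 and 1.23 (SE 0.10 in each, adjusted p 2.24e-05 and 8.94e-06), and CD82 fell in HCC44 by 1.32 (SE 0.22, adjusted p 0.00106). Among 5 collagen receptors that are not integrins, 1 rose and 1 fell in H1975 and 1 rose and 0 fell in HCC44. The receptor kinase DDR1 was at -0.32 in H1975 (SE 0.10, adjusted p 0.032) and 0.33 in HCC44 (SE 0.10, adjusted p 0.0266). Its H1975 call was lost with DESeq2 (-0.29), RLE size factors (-0.29), upper-quartile factors (-0.25), library totals (-0.12) and any 1 H1975 library left out (-0.37 to -0.23), and its HCC44 call without DMSO replicate 1 (0.31), DMSO replicate 2 (0.35) or ACBI1 replicate 2 (0.20).

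The genes around ITGA10 were measured beside it. Within 250 kb on either side, 15 other tested genes are described, and in HCC44 2 were called higher, 1 lower and 12 not, where 34.9% of all tested genes were called. In H1975, where ITGA10 was not called, 5 were called higher and 1 lower, where 31.3% of all tested genes were called. Their HCC44 fold changes ran from -0.66 to 2.01, below the 4.74 of ITGA10. ANKRD35, a neighbour downstream of ITGA10, did not pass the filter, with at most 0.0394 CPM in any group mean. The called neighbours, named after their values were seen, were ANKRD34A (1.35, SE 0.29, adjusted p 0.00476), PIAS3 (0.42, SE 0.10, adjusted p 0.00969) and LINC01719 (-0.66, SE 0.17, adjusted p 0.0105). ANKRD34A was also called in H1975 (1.23, SE 0.28, adjusted p 0.00901), and its HCC44 value was 0.78 without ACBI1 replicate 2. The PIAS3 call in HCC44 was lost without DMSO replicate 1 (0.41), DMSO replicate 2 (0.43) or ACBI1 replicate 2 (0.27), and that of LINC01719 without DMSO replicate 1 (-0.58) or ACBI1 replicate 2 (-0.61). TXNIP had the highest neighbouring value in HCC44 (2.01, SE 0.89) and was not called.

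**Figure D4:**
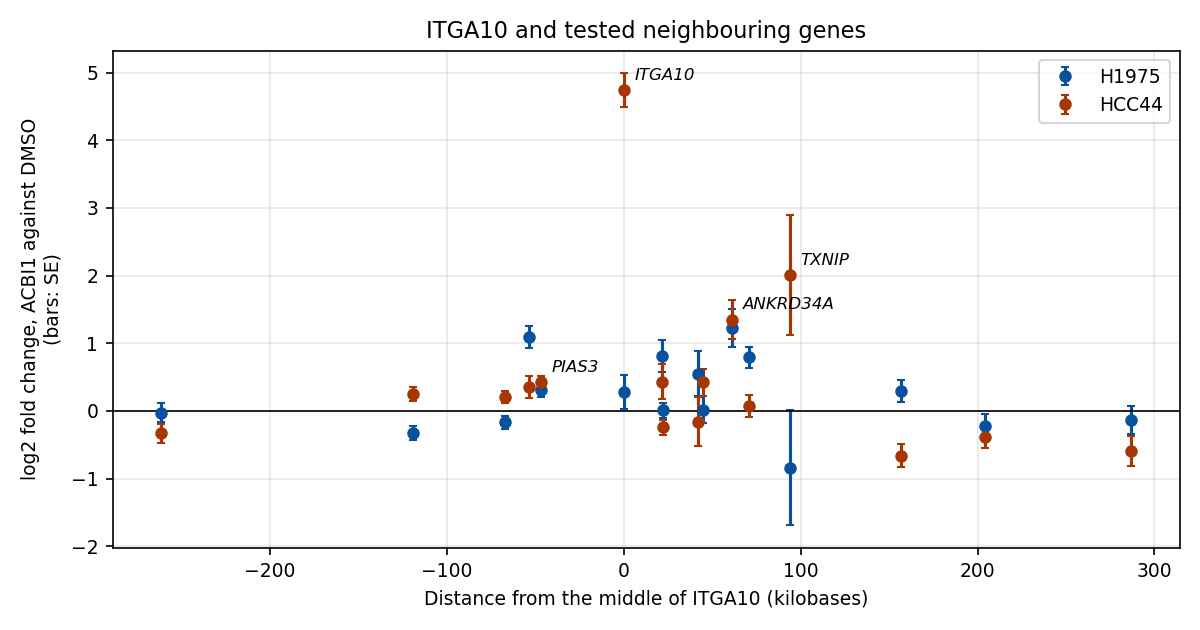
Log2 fold change of ACBI1 against DMSO (y axis, bars are SE) of ITGA10 and 15 tested neighbours, against the distance between gene middles in kilobases, H1975 in blue and HCC44 in red. ITGA10 in HCC44 stands at 4.74, above TXNIP at 2.01 and ANKRD34A at 1.35.

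Over the 8 libraries, the 5 genes whose log2 CPM was most like that of ITGA10, among the 12670 that reached a group mean of 5 CPM, were ENSG00000267002, TUBB2B, CAPRIN2, SETD6 and ENSG00000291055. Their Pearson r ran from 0.9845 to 0.9979. The r is a description over libraries of 4 groups, and ITGA10 was high in 2 of the 8. CAPRIN2 went from 30.6 to 170 CPM in HCC44, and TUBB2B, a tubulin, from 1.33 to 5.92 CPM. The HCC44 log2 fold changes of the 5 ran from 0.53 for SETD6 to 2.47 for CAPRIN2, with 1.01 for ENSG00000267002, the most alike. All were below the 4.74 of ITGA10. Among the other 9 chains, the r with ITGA10 was highest for ITGB1 (0.676), ITGAV (0.624) and ITGA2 (0.599) and lowest for ITGA3 (-0.861). In HCC44 ACBI1, 9 of the 10 chains were higher in replicate 2 than in replicate 1, against 49.3% of all tested genes, and in HCC44 DMSO 8 of the 10 were, against 49.7%. This spread between replicates enters the HCC44 standard errors.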

How the data were processed

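The deposited values, 1 table for each of 8 libraries of 2 lung cancer cell lines, are whole counts of reads assigned to each gene by the authors. TopHat2 2.1.1, HTSeq 0.11.0 and the build hg38 are named per the submitters' processing notes. The annotation release and strand setting are not given in the sources used here. The 5 summary rows of each table, 14.3 to 15.8% of its total, entered neither library sizes nor tests.

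Groups came from the sample titles. A model with 1 mean for each group was fitted over the 8 libraries in edgeR 4.0.16 in R 4.3.3, with filterByExpr, TMM factors, robust quasi-likelihood dispersion and 4 residual degrees of freedom. The standard error was the log2 fold change divided by the square root of F, without its sign. The two-sided test was run for ACBI1 against DMSO in each line, for the lines under DMSO and for the difference of the responses. The procedure was tested on simulated counts drawn with the dispersions estimated from these libraries, and nothing about these data is read from that test. No replicate pair agreed within sampling noise (chi-square over degrees of freedom 21.7 to 43.5). Counting intervals are exact, at 95%, and cover counting error only.

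Chain positions, exon lengths and overlaps came from GENCODE 29 (GRCh38), in which 59.6% of the gene names and all 10 chains matched, so unmatched genes are missing among the neighbours, and upstream sequences from RefSeq. The chains, gene lists and tests were chosen with earlier results of these data known. Named genes were the chains, every other integrin chain that passed the filter, up to 3 called genes per list and line with the largest change and a group mean of at least 5 CPM, and the 5 genes most like ITGA10, with a prior count of 2. Some genes are not reported here. DESeq2 1.42.0 was an alternative. Figures were drawn with matplotlib 3.10.9.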

Additional observations from a re-analysis of the deposited data

Results flagged for a closer look

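The response to ACBI1, HCC44 minus H1975, differed by the interaction test for 5 of the 9 chains other than ITGA10, where 18.6% of all tested genes were called. All 5 were more positive in HCC44, where 10.2% of tested genes were called in that direction. The log2 differences were 2.05 for ITGA2, 0.71 for ITGA5, 1.02 for ITGA6, 1.54 for ITGAV and 3.13 for ITGB6. However, ITGB6 passed the filter on low counts only through H1975, so nothing is read from its call. ITGA2, ITGA5 and ITGAV were called under all 16 alternatives. The ITGA6 call was lost without H1975 DMSO replicate 1 (0.96), H1975 DMSO replicate 2 (1.03), H1975 ACBI1 replicate 2 (0.95) or HCC44 DMSO replicate 1 (0.89), and that of ITGB6 without HCC44 DMSO replicate 2 (2.93) or HCC44 ACBI1 replicate 1 (3.02).

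Among the other integrin chains the difference was called for ITGA11 (-5.93), ITGB2 (-2.38), ITGB5 (1.47), ITGB7 (2.51) and ITGB8 (1.46). ITGA11 had 2 and 6 counts in H1975, so its difference rests on few reads there. It also passed the filter on low counts only through HCC44 DMSO, so nothing is read from its call. The ITGB7 call was lost without HCC44 DMSO replicate 1 (2.16) or HCC44 ACBI1 replicate 2 (1.53). The ITGB8 call was lost with DESeq2 (1.43), with library totals (1.35) and without each library except H1975 DMSO replicate 2 (1.14 to 1.57). Causes of these differences were not tested.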

How the results depend on the processing

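The alternatives were DESeq2, other scalings (RLE, upper-quartile, library totals), other filters (none, or 1 CPM in 2 libraries), non-robust dispersion, the compared groups alone, the replicate number as a block and each library left out. The count of chains called lower in H1975 was 5 to 8 over these. With library totals, 0 chains were called higher in HCC44 DMSO, as without H1975 DMSO replicate 1 or HCC44 DMSO replicate 2. Chains called in HCC44 ranged from 1 to 4 higher and from 1 to 3 lower with 1 library left out. With 1 library left out, all-gene calls in H1975 were 3701 (without ACBI1 replicate 2) to 4596, and those of the difference between the lines 2350 (without HCC44 DMSO replicate 1) to 4200. Fewer samples enter those fits.

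Same-numbered libraries deviated together with r = 0.374 in H1975 and 0.109 in HCC44, but the labels name no shared batch. With the replicate block, calls of the difference between the lines went from 3967 to 6358, and 1 chain was called lower, ITGA3 (-0.28).

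Signs reversed for values that were not called, and the cause was not tested. In H1975, ITGAE was 0.03 under upper-quartile scaling and 0.17 with library totals, ITGA1 was 0.13 with library totals, and 1 library left out gave -0.05 to 0.29 for ITGB1, -0.16 to 0.07 for ITGA1, -0.12 to 0.41 for ITGB8 and -0.02 to 0.63 for ITGA10. In HCC44, such fits gave -0.36 to 0.70 for ITGB4 and -0.15 to 0.41 for ITGA1. Under DMSO, ITGAV was -0.01 with upper-quartile factors, -0.06 with library totals and -0.15 to 0.24 with 1 library left out, and ITGA5 was -0.03 with library totals. The difference between the lines for ITGB1 was -0.09 to 0.25 with 1 library left out. Using the longest transcript in place of all exons raised levels per kilobase by a factor of 1 to 1.79 and changed 6 of 40 ranks. Depth limits ITGB6, ITGA11, ITGAX, ITGAM, ITGB7 and ITGB8, which had few counts in at least 1 group.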
